A study of Mus musculus with 23 samples.

Results

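The genes described here are 8 genes tied to heat production in brown and beige fat cells: Ucp1, Cidea, Prdm16, Dio2, Elovl3, Ppargc1a, Ebf2 and Zic1. They were taken by symbol from the deposited count table, which holds 24062 gene symbols, and all 8 symbols were found. The table covers 23 RNA libraries. The mice were 8 to 10 months old, on a 129Sve/C57BL/6 mix, and both fat and gastrocnemius, a muscle of the hind limb, were sampled. The labels name the fat IAT without saying what that stands for. HL1002P mice carry a hypomorphic H allele and a missense allele of Bub1b, the gene of the spindle checkpoint protein BubR1. HH mice carry H on both chromosomes, and WT mice are wild type. The labels call both mutants progeroid and mosaic variegated aneuploidy (MVA) models, and all mice were left to age without treatment. Fat had 4 HL1002P, 4 HH and 4 WT libraries, and muscle had 4 HL1002P, 3 HH and 4 WT libraries. The labels do not say whether replicates are separate animals or whether a mouse gave both tissues, so a p-value here measures the spread between samples.

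Brown fat cells, and the beige cells that arise within white fat, burn fuel to make heat. Noradrenaline acts on beta-adrenergic receptors of the fat cell, raises cAMP and turns on a set of genes for uncoupled respiration. Prdm16, Ebf2 and the coactivator Ppargc1a set up and drive this program, Ucp1 lets protons leak across the inner mitochondrial membrane, and Dio2 makes active thyroid hormone inside the cell. Cidea is a lipid droplet protein that is abundant in brown fat, Elovl3 lengthens fatty acids and is induced by cold, and Zic1 is a transcription factor that marks classical brown fat and sets it apart from beige fat.

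Promoters of 5 of the 8 genes are in the RefSeq table of GRCm38.p6, each as 250 bases before and 50 bases after the start of transcription. Letters of the cAMP response element are shown because beta-adrenergic signals reach Ucp1, Dio2 and Ppargc1a through cAMP. TGACGTCA and its part TGACG were searched on both strands, as was AGGTCA, the site core of nuclear receptors; TATAAA was searched on the given strand. TGACG lies within every TGACGTCA, so these matches overlap. Among 32851 promoters of the table, 1.79% hold TGACGTCA, 20.8% hold TGACG, 16.3% hold AGGTCA and 8.32% hold TATAAA. The windows below are chr8:83290098-83290397 on the plus strand for Ucp1, chr12:90738989-90739288 on the minus strand for Dio2, chr5:51567676-51567975 on the minus strand for Ppargc1a and chr4:154636824-154637123 on the minus strand for Prdm16, and capitals mark the matches.
Ucp1: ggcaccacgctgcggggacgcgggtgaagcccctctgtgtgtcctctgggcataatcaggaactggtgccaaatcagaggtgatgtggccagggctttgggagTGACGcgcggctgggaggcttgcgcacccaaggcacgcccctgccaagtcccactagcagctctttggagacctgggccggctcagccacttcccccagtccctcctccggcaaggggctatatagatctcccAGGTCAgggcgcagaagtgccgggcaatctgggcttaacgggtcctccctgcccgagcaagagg
Dio2: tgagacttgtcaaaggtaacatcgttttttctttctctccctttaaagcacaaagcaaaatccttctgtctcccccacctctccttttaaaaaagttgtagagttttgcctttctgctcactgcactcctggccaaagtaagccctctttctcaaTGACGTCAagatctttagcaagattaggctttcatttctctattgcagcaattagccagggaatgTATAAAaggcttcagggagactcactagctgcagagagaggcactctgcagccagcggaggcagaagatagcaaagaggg
Ppargc1a: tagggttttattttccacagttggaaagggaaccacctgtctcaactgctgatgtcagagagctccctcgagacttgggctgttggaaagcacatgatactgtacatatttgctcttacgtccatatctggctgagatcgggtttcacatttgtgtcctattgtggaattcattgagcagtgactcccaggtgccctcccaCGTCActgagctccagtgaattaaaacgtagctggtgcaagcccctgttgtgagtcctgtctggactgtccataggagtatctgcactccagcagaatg
Prdm16: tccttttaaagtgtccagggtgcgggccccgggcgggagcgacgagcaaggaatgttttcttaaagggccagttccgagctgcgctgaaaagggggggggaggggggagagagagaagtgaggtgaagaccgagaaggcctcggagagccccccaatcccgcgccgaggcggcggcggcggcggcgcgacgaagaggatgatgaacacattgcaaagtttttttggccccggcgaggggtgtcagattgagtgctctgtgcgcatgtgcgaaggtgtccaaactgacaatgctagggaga
Ucp1 has TGACG starting 147 bases before the start of transcription and AGGTCA 14 bases before it. Dio2 holds the full TGACGTCA 95 bases before its start and TATAAA 30 bases before it, and Ppargc1a has CGTCA, the same part read on the other strand, 49 bases before its start. None of these letters is in the windows of Prdm16 and Zic1.

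In WT fat the genes spanned a wide range per length of transcript. Levels below are normalised read counts (CPM, counts scaled to library size); for comparisons between genes they were divided by exon length in kilobases (RPKM). Mean levels in WT fat were 23.04 RPKM for Cidea, 11.97 for Ucp1, 3.37 for Ebf2, 2.81 for Prdm16, 1.14 for Ppargc1a, 0.419 for Dio2, 0.252 for Elovl3 and 0.0117 for Zic1. Ucp1 in WT fat had 29.97 RPKM in replicate 3 and 5.37 to 7.13 RPKM in the other 3, so that its range overlapped that of Cidea and lay above that of Ebf2, at 2.48 to 4.58 RPKM. The ranges of Ebf2 and Prdm16 in WT overlapped, as did those of Dio2 and Elovl3. In HL1002P fat the order was Cidea at 20.8 RPKM, Ucp1 at 8.48, Ebf2 at 2.23, Prdm16 at 1.35, Ppargc1a at 1.04, Dio2 at 0.481, Elovl3 at 0.182 and Zic1 at 0.0192. HH fat had Cidea at 18.3 RPKM, then Ebf2 at 2.37, Ucp1 at 2.21, Prdm16 at 1.19, Ppargc1a at 0.799, Elovl3 at 0.294, Dio2 at 0.237 and Zic1 at 0.0324. By mean level Cidea led and Zic1 was last in each genotype, and in HH Ebf2 stood above Ucp1 and Elovl3 above Dio2. Within HH fat the ranges of both of these pairs overlapped.

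Prdm16 was the gene that fell in both mutants. It was the 1 of 7 tested genes to pass in HL1002P fat and again the 1 of 7 in HH fat, at 0.482 and 0.422 times the WT level. Of all 16266 genes tested in fat, 31.8% changed in HL1002P (17.3% higher and 14.5% lower) and 20.8% changed in HH (12.3% higher and 8.59% lower), so 1 of 7 is no larger a share than that of all genes. A gene was called changed at a Benjamini-Hochberg adjusted p below 0.05 by edgeR's quasi-likelihood test over all genes. The median log2 fold change of the 7 tested genes was −0.48 in HL1002P and −0.51 in HH, against −0.07 and −0.06 over all genes. Both mutants were set against the same 4 WT libraries. The direct comparison of HL1002P with HH fat gave 0 of 7 changed genes, and over all genes 0% were called by edgeR, with 535 at an unadjusted p below 0.05 and 20 called by DESeq2. The largest differences of HL1002P from HH were those of Ucp1, at 1.94 ± 1.43 on the log2 scale, and Dio2, at 1.02 ± 0.71 (SE; edgeR adjusted p = 0.999 for each).

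**Figure D1:**
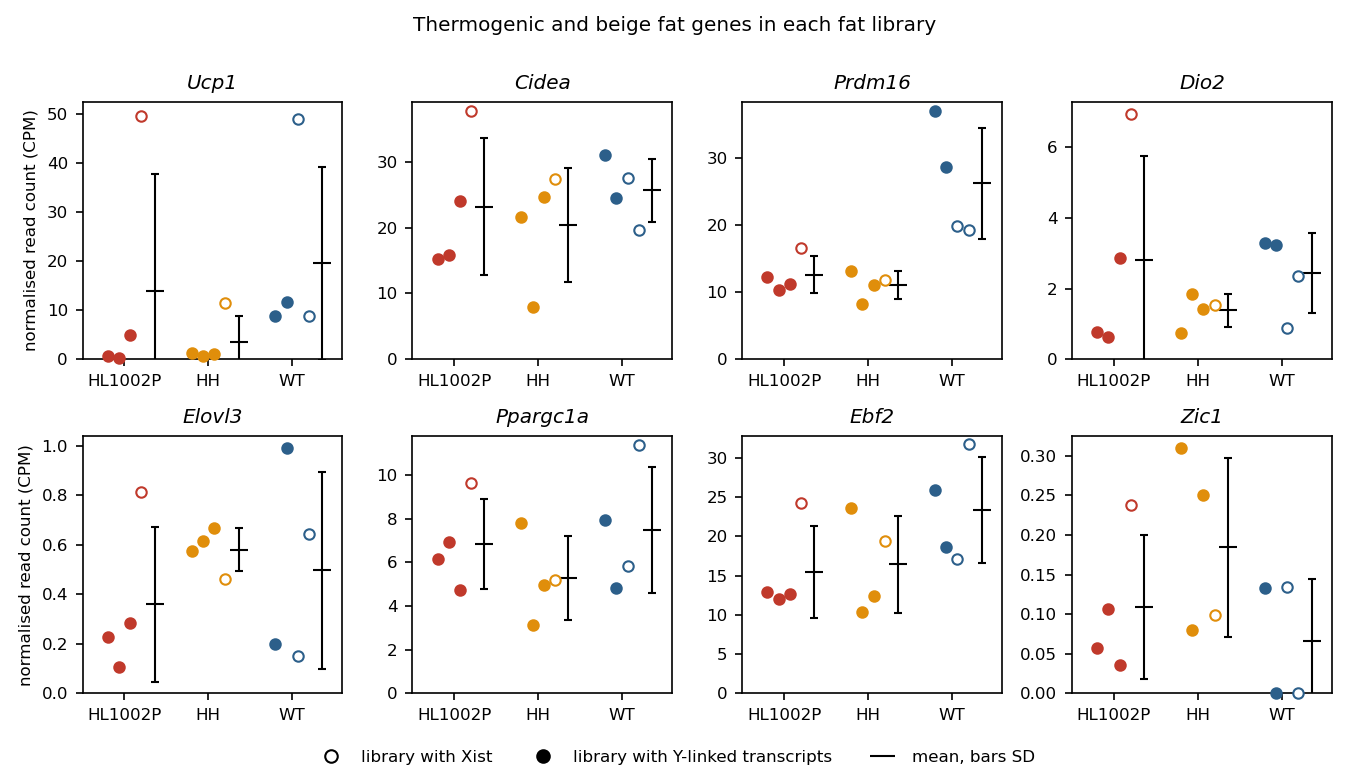
Normalised read counts (CPM, vertical axes from 0, 1 scale per gene) of the 8 genes in each fat library, grouped by genotype, and beside the points each group's mean and SD (SD bars end at the axis where they would pass below 0). Open points are libraries with Xist and filled points those with Y-linked transcripts. All 8 mutant libraries lie below all 4 WT libraries for Prdm16, whereas Ucp1 has 1 high library in each genotype.

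Prdm16 (chromosome 4, 154316125 to 154636873, minus strand, GRCm38) encodes a zinc finger coregulator that steers cells to the brown and beige fate. In HL1002P fat it had 12.3, 10.3, 11.3 and 16.6 CPM in replicates 1 to 4. HH fat had 13.1, 8.27, 11.01 and 11.8 CPM, and WT fat had 37.0, 28.6, 19.9 and 19.3 CPM. Every mutant library was below every WT library, and the mutants overlapped each other. In WT, replicates 1 and 2, at 37.0 and 28.6 CPM, carry Y-linked transcripts, and replicates 3 and 4, at 19.9 and 19.3 CPM, carry Xist. Replicate 4 is the only library with Xist in each mutant, at 16.6 CPM in HL1002P and 11.8 CPM in HH, so the gap of HL1002P to WT was narrow there. Groups that did not overlap, with the mutant lower, were seen for 12.4% of all genes in HL1002P and 10.9% in HH. The log2 fold change was −1.05 ± 0.24 in HL1002P (SE; edgeR adjusted p = 0.0122) and −1.24 ± 0.24 in HH (adjusted p = 0.0122). HL1002P and HH differed by 0.19 ± 0.24 on the log2 scale (edgeR adjusted p = 0.999). With any 1 library left out both calls were kept, at −0.84 to −1.18 in HL1002P and −1.01 to −1.37 in HH.

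Markers of fat cells in general were lower in HL1002P as well. The 20 fat cell markers summed to 24522 to 47645 CPM in HL1002P, 26315 to 63395 in HH and 43195 to 93884 in WT fat, and both mutant ranges overlapped that of WT. In HL1002P 11 of them fell and 0 rose, where 14.5% of all genes fell. In HH 2 of them fell and 1 rose, a share near the 8.59% of all genes that fell there. When the 3 libraries highest in muscle markers, described below, were left out, 17 fell in HL1002P and 13 in HH, where 22.7% and 16.7% of all genes fell. In the fit of all 12 libraries the medians of the fat cell markers were −1.17 in HL1002P and −0.95 in HH, close to the values of Prdm16. With library sizes set so that these markers are level, the log2 fold change of Prdm16 was 0.11 ± 0.33 in HL1002P, of the opposite sign, and −0.29 ± 0.33 in HH, and neither passed (edgeR adjusted p = 0.794 and 0.493), while 42.9% of all genes did in HL1002P and 9.36% in HH. This scaling moved the median of all genes to 1.04 in HL1002P and 0.86 in HH, and relative to those medians Prdm16 was at −0.92 in HL1002P and −1.15 in HH. Taking off the medians largely undoes the scaling, so these differences are no test apart from the main fit. With the fat cell markers as a covariate Prdm16 was at −0.45 (edgeR adjusted p = 0.335) in HL1002P and −0.77 (adjusted p = 0.0690) in HH. Few genes of any kind passed in that fit, as counted below, so the lost call is not particular to Prdm16. In whole fat, fewer cells of a type and less RNA per cell cannot be told apart.

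Lymphocyte and lymph node markers moved the other way from Prdm16. They summed to 1817 to 4834 CPM in HL1002P, 2306 to 4156 in HH and 107 to 919 in WT fat, with no overlap between either mutant and WT. Of 18 tested, 18 rose in HL1002P and 15 in HH, where 17.3% and 12.3% of all genes rose. The medians of the lymphocyte markers were 2.35 and 2.12. With these markers as a covariate 0 genes passed in either mutant, and Prdm16 was at −0.33 in HL1002P (edgeR adjusted p = 0.991) and −0.60 in HH (adjusted p = 0.889). These markers separate every mutant library from every WT library, so marker level and genotype cannot be told apart in that fit.

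**Figure D2:**
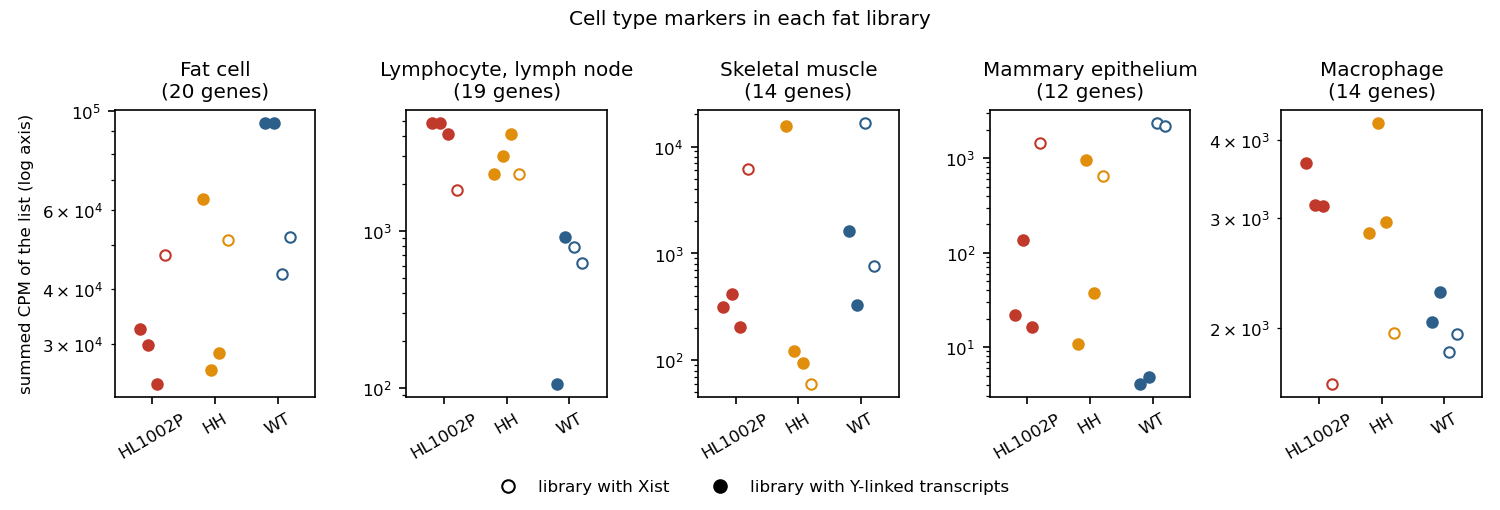
Summed normalised read counts (CPM, log axes) of 5 cell type marker lists in each fat library, by genotype, with open points for libraries with Xist. Lymphocyte markers lie above all WT libraries in every mutant library, fat cell markers reach 93884 in WT and at most 47645 in HL1002P, and muscle markers are highest in 1 library of each genotype.

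Skeletal muscle markers marked 1 fat library of each genotype, WT replicate 3, HH replicate 1 and HL1002P replicate 4. Their 14 markers summed to 207 to 6200 CPM in HL1002P, 60.7 to 15593 in HH and 332 to 16514 in WT fat. Without these 3 libraries Prdm16 was at −1.32 ± 0.25 in HL1002P (edgeR adjusted p = 0.00408) and −1.45 ± 0.25 in HH (adjusted p = 0.00608). Ebf2 passed as well in that fit, so that 2 of 7 genes were lower in each mutant, where 22.7% of all genes were lower in HL1002P and 16.7% in HH. This set of libraries was chosen after the data were seen. Mammary epithelial markers were highest in WT replicates 3 and 4, at 2337 and 2184 CPM in sum, and in HL1002P replicate 4, at 1448 CPM; HH replicate 2 followed at 964 CPM and HH replicate 4 at 651 CPM. Of these, HH replicate 2 carries Y-linked transcripts and the other 4 are the libraries with Xist. Mammary and skin markers had 0 changed genes in either mutant, macrophage markers had 1 higher and 1 lower of 14 in HL1002P and 0 and 1 in HH, and preadipocyte markers had 2 higher and 3 lower of 10 in HL1002P and 1 and 2 in HH. Over all genes 31.8% changed in HL1002P and 20.8% in HH.

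Ebf2 (chromosome 14, 67233292 to 67430918, plus strand) encodes a transcription factor that works with Prdm16 in brown fat cells and their precursors. HL1002P fat had 12.9, 12.02, 12.6 and 24.2 CPM, HH fat 23.6, 10.3, 12.4 and 19.5 CPM, and WT fat 25.9, 18.6, 17.2 and 31.7 CPM. Of the HL1002P libraries, 3 were below every WT library and replicate 4 was not. The log2 fold change was −0.60 ± 0.32 in HL1002P (edgeR adjusted p = 0.162) and −0.51 ± 0.32 in HH (adjusted p = 0.253), and neither passed. Without HL1002P replicate 4 Ebf2 passed in HL1002P at −0.85 ± 0.29 (edgeR adjusted p = 0.0377), in a fit where 19.2% of all genes were lower. Without the 3 libraries highest in muscle markers it passed in both, at −1.03 ± 0.27 and −0.86 ± 0.27 (edgeR adjusted p = 0.0142 and 0.0362). Scaled to the fat cell markers Ebf2 was at 0.41 in HL1002P and 0.23 in HH, which is −0.62 and −0.63 relative to the medians of all genes under that scaling. As for Prdm16, taking off the medians largely undoes the scaling and is no separate test.

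Ppargc1a (chromosome 5, 51454250 to 51567726, minus strand) encodes PGC-1alpha, a coactivator of mitochondrial genes in fat and muscle. It had 6.13, 6.94, 4.73 and 9.62 CPM in HL1002P fat, 7.79, 3.13, 4.96 and 5.19 CPM in HH fat, and 7.92, 4.84, 5.83 and 11.4 CPM in WT fat. The 3 groups overlapped over most of their range. Its log2 fold changes of −0.13 ± 0.34 in HL1002P and −0.51 ± 0.34 in HH did not pass (edgeR adjusted p = 0.782 and 0.284).

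Zic1 (chromosome 9, 91358058 to 91365810, minus strand) was near the limit of detection in fat. The libraries held 2, 6, 2 and 7 counts in HL1002P, 15, 4, 6 and 3 in HH, and 6, 0, 8 and 0 in WT fat. A count of 0 allows up to 3 counts. Zic1 did not pass the filter on low counts in fat and was not tested there. The ratio of its summed rate to WT was 1.21 in HL1002P (95% interval 0.563 to 2.66) and 2.30 in HH (1.17 to 4.74), intervals that cover counting error only. HH replicate 1 held 15 of the 28 HH counts.

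Ucp1 (chromosome 8, 83290352 to 83298452, plus strand) encodes uncoupling protein 1, the defining protein of heat-producing fat cells. HL1002P fat had 0.659, 0.303, 4.96 and 49.6 CPM, HH fat 1.24, 0.698, 1.04 and 11.5 CPM, and WT fat 8.79, 11.7, 49.0 and 8.82 CPM. A library stood far above the rest in each genotype, replicate 4 in HL1002P and HH and replicate 3 in WT. The highest library exceeded the lowest 164-fold in HL1002P, 16.4-fold in HH and 5.58-fold in WT. Medians were 2.81 CPM in HL1002P, 1.14 in HH and 10.2 in WT, and means were 13.9 ± 23.9, 3.61 ± 5.24 and 19.6 ± 19.7 (SD, n = 4 each). The log2 fold change was −0.50 ± 1.37 in HL1002P (SE; edgeR adjusted p = 0.789) and −2.45 ± 1.45 in HH (adjusted p = 0.225), and neither passed. An SE above 1 on the log2 scale means that a change of Ucp1 of several fold was not detectable here.

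The libraries with the most Ucp1 also differed in other ways. Xist marks WT replicates 3 and 4, HL1002P replicate 4 and HH replicate 4, and the other 8 fat libraries carry Y-linked transcripts. Among the libraries with Xist Ucp1 had 49.6 CPM in HL1002P, 11.5 in HH, and 49.0 and 8.82 in WT. Among those with Y-linked transcripts all 6 mutant libraries, at 0.303 to 4.96 CPM, were below both WT libraries, at 8.79 and 11.7 CPM. With so few WT libraries, 27.1% of all genes were lower in this way. In a fit of those 8 libraries Ucp1 passed in HH, at −3.35 ± 1.004 (edgeR adjusted p = 0.0337), where 17.2% of all genes were lower, and not in HL1002P, at −2.36 ± 0.97 (adjusted p = 0.0772), where 22.2% were lower. WT had 2 libraries in that fit. Prdm16 was at −1.53 in HL1002P and −1.59 in HH there. WT replicate 3 and HL1002P replicate 4 are also 2 of the 3 libraries highest in muscle markers. Without those 3 libraries Ucp1 was at −2.30 in HL1002P and −1.15 in HH, and with sex as a covariate at −1.21 and −2.64; none of these passed (edgeR adjusted p = 0.149, 0.468, 0.309 and 0.0724). The part of mammary tissue in the Ucp1 values was not tested. Without HL1002P replicate 4 the HL1002P value was −3.24 (edgeR adjusted p = 0.0668), without HH replicate 4 the HH value was −4.26 (adjusted p = 0.0799), and without WT replicate 3 they were 0.50 and −1.44.

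Cidea (chromosome 18, 67343604 to 67367785, plus strand) had 15.3, 15.9, 24.0 and 37.7 CPM in HL1002P fat, 21.7, 7.97, 24.7 and 27.4 CPM in HH fat, and 31.0, 24.5, 27.6 and 19.7 CPM in WT fat. Of all 12 libraries HL1002P replicate 4 was the highest and HH replicate 2 the lowest. The log2 fold changes were −0.15 ± 0.37 in HL1002P and −0.33 ± 0.37 in HH (edgeR adjusted p = 0.771 and 0.523). Its spread within WT, an SD of 4.81 CPM on a mean of 25.7, was far narrower than that of Ucp1.

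Dio2 (chromosome 12, 90724552 to 90738438, minus strand) encodes the type II deiodinase. This span is from GENCODE and does not reach the RefSeq promoter window above, so the annotations place the start of transcription differently. Dio2 had 0.774, 0.624, 2.85 and 6.94 CPM in HL1002P fat, 0.742, 1.83, 1.42 and 1.52 CPM in HH fat, and 3.28, 3.24, 0.873 and 2.36 CPM in WT fat. HL1002P replicate 4 was again the highest of all, and the groups overlapped. Log2 fold changes were 0.20 ± 0.70 in HL1002P and −0.82 ± 0.71 in HH (edgeR adjusted p = 0.839 and 0.399).

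Elovl3 (chromosome 19, 46131897 to 46135694, plus strand) rested on few counts, 54 in all HL1002P, 89 in all HH and 75 in all WT fat libraries. Levels were 0.229, 0.107, 0.285 and 0.816 CPM in HL1002P, 0.577, 0.618, 0.668 and 0.463 CPM in HH, and 0.199, 0.994, 0.151 and 0.646 CPM in WT fat. HH libraries lay close together inside the wide WT range. Log2 fold changes were −0.48 ± 0.69 in HL1002P and 0.24 ± 0.68 in HH (edgeR adjusted p = 0.600 and 0.808).

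Exons of 5 of these genes overlap a gene on the other strand, by 424 bases for Ebf2, 109 for Prdm16, 100 for Dio2, 60 for Zic1 and 10 for Elovl3. The library kit does not keep the strand, so reads of the overlapping stretches cannot be told apart.

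**Figure D3:**
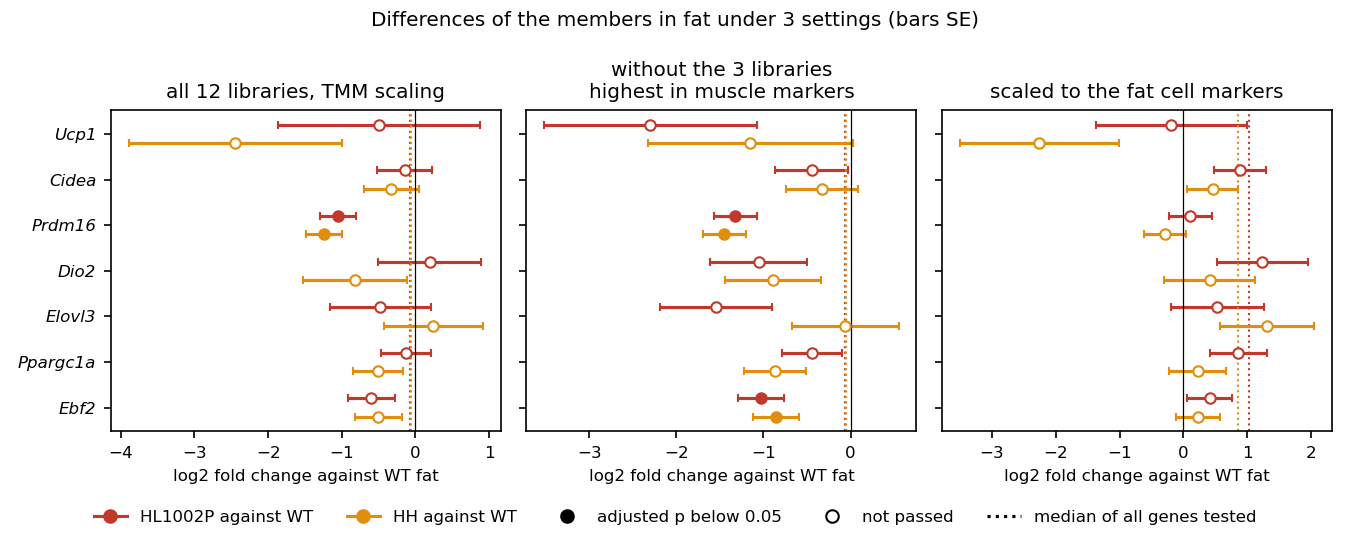
Log2 fold change against WT fat (horizontal axes, bars SE) of the 7 tested genes in HL1002P and HH, under TMM scaling of all 12 libraries, without the 3 libraries highest in muscle markers, and with libraries scaled to the fat cell markers. Filled points passed the test and dotted lines are medians of all genes. Prdm16 passed in the first and second panels and sat at 0.11 in HL1002P and −0.29 in HH in the last one, where the medians of all genes were 1.04 and 0.86.

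Across the 12 fat libraries, with genotype means subtracted, the genes were correlated to unlike degrees, and no pair was negative. The highest correlations of log2 CPM between them were those of Ppargc1a with Ebf2 (r = 0.877), Dio2 with Elovl3 (0.712), Ucp1 with Cidea (0.711) and Cidea with Prdm16 (0.673), and the lowest was that of Dio2 with Ppargc1a (0.033). These values describe 12 libraries that share tissue content and depth, and carry no test. Among 13447 other genes of at least 1 CPM on average, those most like Ucp1 were Ptprs (r = 0.929), a receptor tyrosine phosphatase, Bend7 (0.923) and Mc5r (0.886), a melanocortin receptor that also stands in the skin and sebaceous list. Prdm16 was most like Kcnc2 (0.960), a voltage-gated potassium channel, Sh3bp5l (0.953) and Coq5 (0.948), an enzyme of coenzyme Q synthesis. Ebf2 was most like Angptl2 (0.962), a secreted angiopoietin-like protein, Chst14 (0.960), a sulfotransferase of dermatan sulfate, and Opn3 (0.959), an opsin. Cidea was most like Ccdc37 (0.936), Tcf15 (0.933) and Pcdhgb8 (0.910), and Dio2 like Mylk (0.945), Gja1 (0.907) and Apba1 (0.891). Ppargc1a was most like Slc38a7 (0.934), Zfp655 (0.890) and Itih2 (0.875), and Elovl3 like Emc10 (0.852), Mrgprg (0.844) and Selm (0.819).

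Genes that carry the adrenergic signal to these targets moved in both directions. Of 15 genes of beta-adrenergic and cAMP signalling, 3 rose and 5 fell in HL1002P fat (median log2 fold change −0.04), and 4 rose and 3 fell in HH fat (median −0.13). Over all genes 17.3% rose and 14.5% fell in HL1002P, and 12.3% rose and 8.59% fell in HH. Creb1, the transcription factor that binds cAMP response elements, rose by 0.77 ± 0.16 in HL1002P, and Prkacb, a catalytic subunit of protein kinase A, by 0.55 ± 0.13. The adenylyl cyclases Adcy5 and Adcy3 fell in HH by 1.61 ± 0.37 and 0.64 ± 0.16 on the log2 scale, with Adcy5 at 72.1 ± 33.4 CPM in HH and 221 ± 74.9 in WT. In HH 6 fell without the 3 libraries highest in muscle markers, where 16.7% of all genes did. Scaling to the fat cell markers shifted all genes upward, with 42.4% of them called higher in HL1002P and 8.74% in HH, so counts under it are read against those shares. Under it 7 of the 15 rose and 0 fell in HL1002P, and 1 rose and 0 fell in HH.

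Other transcription factors and cofactors of brown and beige fat were lower where they passed, with 1 exception in each mutant. Of 21, 1 rose and 6 fell in HL1002P (median −0.52), and 1 rose and 3 fell in HH (median −0.35). The shares of all genes were 17.3% higher and 14.5% lower in HL1002P, and 12.3% higher and 8.59% lower in HH. Irf4, which acts in lymphocytes and also with Ppargc1a in brown fat, was the gene that rose, to 89.6 ± 32.5 CPM in HL1002P and 77.4 ± 24.3 in HH, against 22.8 ± 10.02 in WT. Thra, a thyroid hormone receptor, was 50.2 ± 15.2 CPM in HL1002P, 55.9 ± 11.2 in HH and 98.8 ± 8.52 in WT (log2 fold changes −0.98 ± 0.21 and −0.82 ± 0.21). Pparg, the master regulator of fat cells, fell by 1.10 ± 0.32 in HL1002P, and Rxrg, a retinoid X receptor that can pair with it, by 0.97 ± 0.26 in HH. Without the 3 libraries highest in muscle markers 9 fell in HL1002P and 7 in HH, where 22.7% and 16.7% of all genes fell. Scaled to the fat cell markers 5 of the 21 rose and 0 fell in HL1002P, where 42.4% of all genes rose, and 1 rose and 0 fell in HH, where 8.74% did.

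Genes of brown fat mitochondria and lipid use were lower where they passed. Of 17 tested, 0 rose in either mutant, 4 fell in HL1002P and 5 in HH, with a median of −0.77 in both. Over all genes 17.3% rose and 14.5% fell in HL1002P, and 12.3% rose and 8.59% fell in HH. Kcnk3, a potassium channel known to restrain heat production, was 15.4 ± 5.54 CPM in HL1002P, 17.2 ± 5.16 in HH and 56.0 ± 27.9 in WT (log2 fold changes −1.86 ± 0.40 and −1.70 ± 0.40). Plin5, a lipid droplet protein of oxidative tissues, had log2 fold changes of −1.63 ± 0.40 and −1.40 ± 0.40, and Otop1, a proton channel, −2.08 ± 0.66 and −2.89 ± 0.69, all past the test. Without the 3 libraries highest in muscle markers 10 of 17 fell in HL1002P and 7 in HH, where 22.7% and 16.7% of all genes fell. Scaled to the fat cell markers 3 rose and 0 fell in HL1002P, where 42.4% of all genes rose. In HH 0 rose and 1 fell, where 8.74% of all genes rose and 9.36% passed in either direction.

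Depot markers of beige fat that passed went both ways in each mutant, and those of white fat that passed fell. Counts below stand beside 17.3% of all genes higher and 14.5% lower in HL1002P, and 12.3% higher and 8.59% lower in HH. Of 5 brown markers 1 rose and 1 fell in HL1002P (median log2 fold change −0.76) and 1 rose and 0 fell in HH (median −0.27). Epsti1 rose in both, by 1.62 ± 0.38 and 1.53 ± 0.38, and Lhx8, a homeobox gene, fell in HL1002P by 0.98 ± 0.30. Of 13 beige markers 4 rose and 5 fell in HL1002P (median −0.75), and 5 rose and 2 fell in HH (median −0.62). Among those that rose, Cd40, which B cells and antigen-presenting cells also make, was 54.6 ± 17.4 CPM in HL1002P, 45.0 ± 15.4 in HH and 13.1 ± 5.95 in WT, and Tmem26 was 8.87 ± 3.63, 7.64 ± 3.92 and 1.86 ± 0.721 CPM. Sp100, which interferon induces, rose by 1.23 ± 0.23 in HL1002P, and Klhl13 fell by 1.69 ± 0.39 in HH. Of 5 white markers 0 rose and 3 fell in HL1002P, Hoxc10 by 1.43 ± 0.40, the amino acid carrier Slc7a10 by 1.21 ± 0.39 and leptin (Lep) with a log2 fold change of −2.99 ± 0.97, and 0 passed in HH. The medians of the white markers were −1.21 in HL1002P and −0.61 in HH. In HH 3 white and 5 beige markers fell without the 3 libraries highest in muscle markers, where 16.7% of all genes did. Scaled to the fat cell markers, 5 of 13 beige markers rose and 0 fell in each mutant, where 42.4% of all genes rose in HL1002P and 8.74% in HH.

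Heat can also be made without Ucp1, by cycles of creatine or calcium. Of 11 genes of these cycles and of other uncoupling proteins, 1 rose and 4 fell in HL1002P (median −0.92), and 1 rose and 1 fell in HH (median −0.73). Over all genes 17.3% rose and 14.5% fell in HL1002P, and 12.3% rose and 8.59% fell in HH. Gatm, the first enzyme of creatine synthesis, rose in both, to 20.2 ± 4.40 CPM in HL1002P and 17.8 ± 2.76 in HH, against 11.3 ± 1.29 in WT. The calcium pump Atp2a2 fell by 0.52 ± 0.15 in HL1002P, and the calcium channel Ryr2 fell by 2.22 ± 0.65 in HL1002P and 2.11 ± 0.65 in HH. Both are also muscle genes, and Ryr2 in WT was 10.5 ± 8.38 CPM. Of 7 secreted signals of heat-producing fat 0 rose in either mutant, 3 fell in HL1002P and 2 in HH, against the same shares of all genes. Fgf21, a hormone that beige fat can secrete, was 0.482 ± 0.235 CPM in HL1002P, 0.200 ± 0.114 in HH and 3.43 ± 2.19 in WT (log2 fold changes −2.84 ± 0.65 and −4.11 ± 0.70, edgeR adjusted p = 0.0123 and 0.0113). Vegfa and Metrnl fell in HL1002P by 0.82 ± 0.23 and 0.83 ± 0.25, and Slit2 fell in HH by 2.18 ± 0.61. For Fgf21 no mutant library reached a WT one, an order seen for 12.4% of all genes in HL1002P and 10.9% in HH. Without the 3 libraries highest in muscle markers 8 of the 11 creatine, calcium and uncoupling genes fell in HL1002P and 5 in HH, and 6 of the 7 secreted signals fell in HL1002P and 4 in HH, where 22.7% and 16.7% of all genes fell. Scaled to the fat cell markers, 1 of the 11 rose and 0 fell in each mutant, and 0 of the 7 rose and 1 fell. Of all genes, 42.4% rose and 42.9% passed in either direction in HL1002P under that scaling, and 8.74% and 9.36% in HH.

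**Figure D4:**
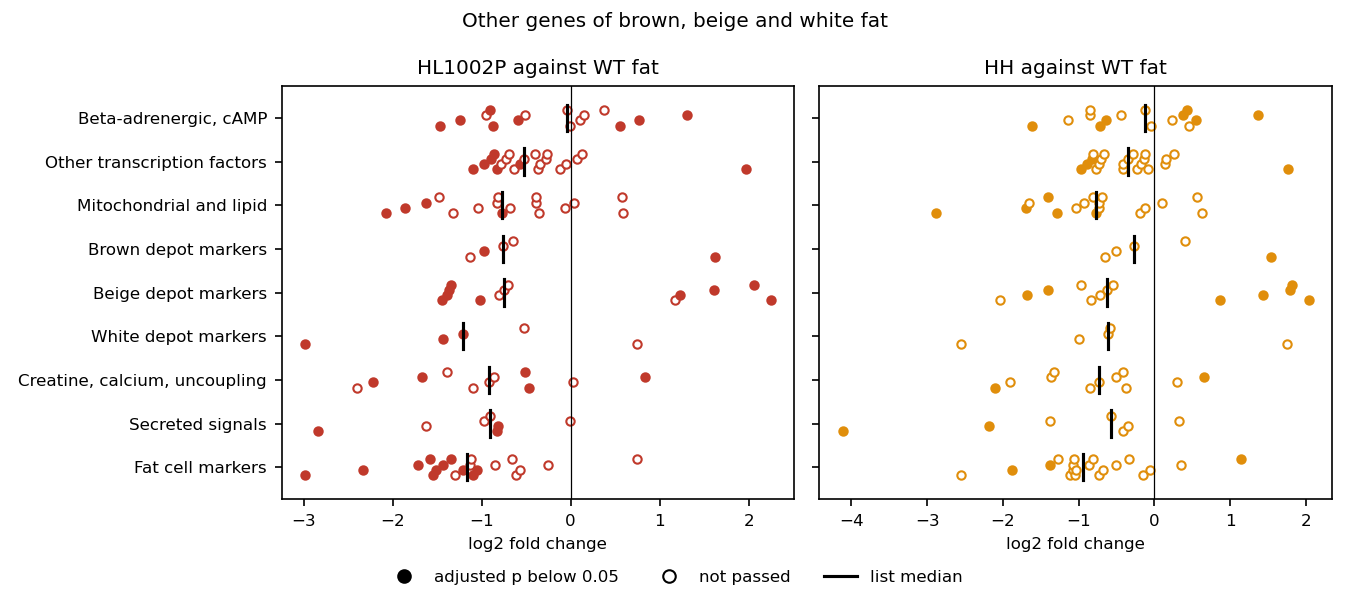
Log2 fold change against WT fat (horizontal axes) of each tested gene of 8 lists of brown, beige and white fat genes and of the fat cell markers, in HL1002P on the left and HH on the right; filled points passed the test and bars are list medians. The medians of the lists run from −1.21 to −0.04 in HL1002P, and the fat cell markers, at −1.17, lie among them.

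In gastrocnemius the order of levels was different. Ppargc1a led at 5.45 RPKM in HL1002P, 5.63 in HH and 4.80 in WT muscle, above its own level in fat, though the tissues were normalised separately. Cidea followed at 2.31, 2.502 and 2.36 RPKM, and each of the other genes was below 1 RPKM in every genotype. None of the 8 genes, all tested here, passed in HL1002P or HH against WT or in HL1002P against HH, where 0.117%, 0.377% and 0.0206% of 14580 genes were called. Zic1 had 1.24 ± 0.209 CPM in HL1002P, 1.27 ± 1.14 in HH and 1.22 ± 0.256 in WT muscle, and HH replicate 2 stood low at 0.119 CPM. Elovl3 was 1.0002 ± 0.0936 CPM in HL1002P and 0.569 ± 0.241 in WT, a log2 fold change of 0.81 ± 0.32 that did not pass (edgeR adjusted p = 0.421).

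Ucp1 in muscle was low and uneven. HL1002P muscle had 0, 0, 2 and 0 counts, and a count of 0 allows up to 0.0545 to 0.0864 CPM in these libraries. HH muscle had 0.209, 1.57 and 1.26 CPM and WT muscle 0.0664, 0.139, 0.285 and 0.256 CPM. Every HL1002P library was below every WT and every HH library, which held for 2.57% of genes against WT and 2.61% against HH, while HH and WT overlapped. Against WT this order rests on 2 counts in HL1002P replicate 3 and 3 counts in WT replicate 1. The limits of HL1002P replicates 1 and 2, at 0.0864 and 0.0677 CPM, lie above the 0.0664 CPM of that WT library. The log2 fold change was −3.72 ± 1.08 in HL1002P against WT (edgeR adjusted p = 0.287), 2.45 ± 0.72 in HH against WT (adjusted p = 0.132) and −6.17 ± 1.001 in HL1002P against HH (adjusted p = 0.134). The sums were 2 counts in HL1002P, 146 in HH and 33 in WT, and the ratio of HL1002P to HH was 0.0108 (95% interval 0.0013 to 0.0397, counting error only). DESeq2 called the difference between HL1002P and HH (adjusted p = 0.000369), with 0.281% of genes called, and edgeR did so without HH replicate 1 (adjusted p = 0.0231), with 0.0405% called. Ucp1 entered these tests through HH and WT libraries only. With HL1002P and HH libraries alone, or a filter of 1 CPM on average, Ucp1 failed the filter and was not tested. Fat cell markers summed to 6195 to 9676 CPM in HL1002P, 6896 to 9940 in HH and 6309 to 9619 in WT muscle, ranges that overlapped.

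**Figure D5:**
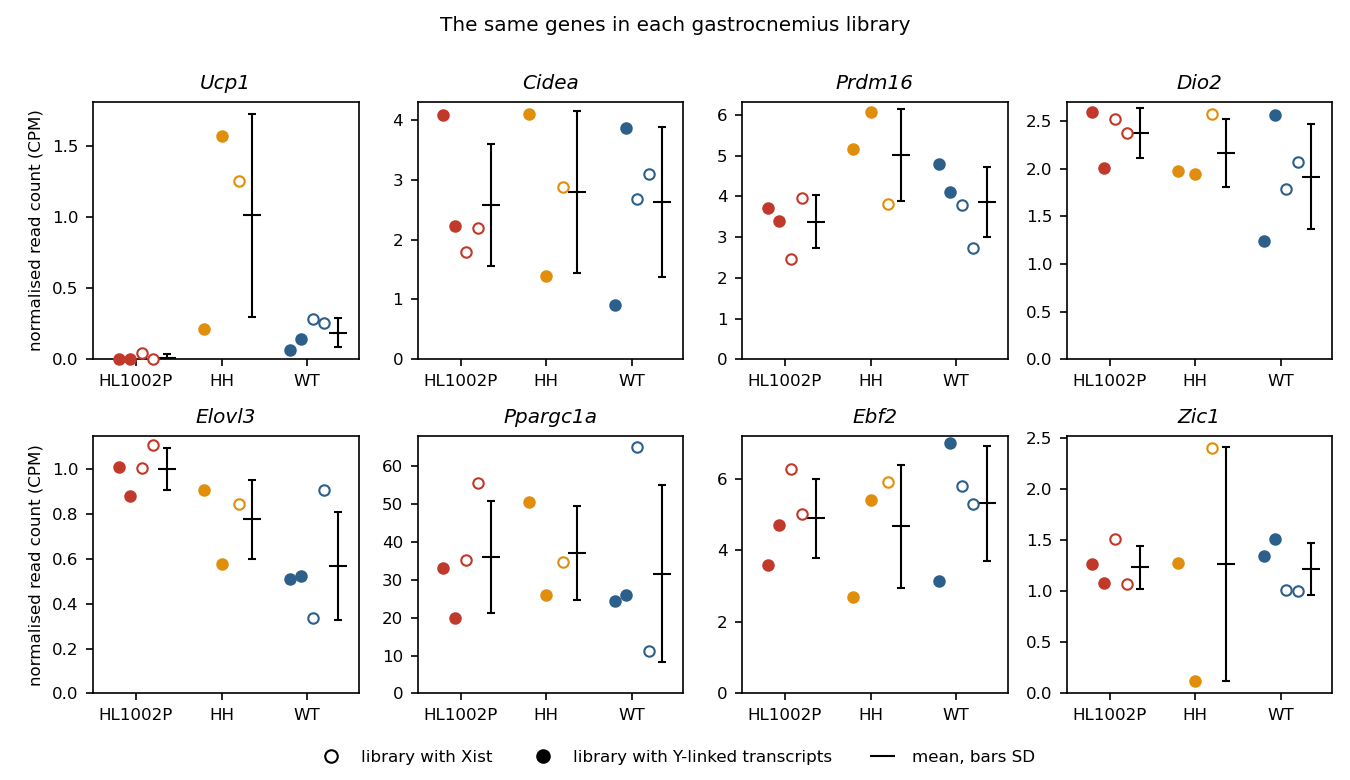
Normalised read counts (CPM, vertical axes from 0, 1 scale per gene) of the 8 genes in each gastrocnemius library, by genotype, with group mean and SD (SD bars end at the axis where they would pass below 0) and open points for libraries with Xist. HL1002P libraries are at or next to 0 for Ucp1, and HH replicates 2 and 3 are at 1.57 and 1.26 CPM.

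A test of the genotype effect in fat minus that in muscle covered 5 of the 8 genes, those of at least 1 CPM on average in each tissue. Prdm16 in HH differed between the tissues, at −1.55 ± 0.33 (edgeR adjusted p = 0.0179), the 1 of 5 to pass where 7.39% of 11870 genes passed and 3.35% were lower in fat. In muscle Prdm16 was 3.38 ± 0.651 CPM in HL1002P, 5.02 ± 1.13 in HH and 3.86 ± 0.856 in WT, so its muscle values in HH overlapped those of WT. For HL1002P the difference of Prdm16 was −0.79 ± 0.32 and did not pass (adjusted p = 0.0814), with 0 of 5 genes past the test against 19.0% of all genes. It did pass without WT fat replicate 3, at −0.90 (adjusted p = 0.0489), and without HL1002P fat replicate 4, at −0.93 (adjusted p = 0.0338). Cidea, Dio2, Ppargc1a and Ebf2 passed in neither mutant.

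Totals were 22.6 to 58.8 M counts per fat library and 34.1 to 55.3 M per muscle library. Bub1b, the mutated gene, was 0.210 ± 0.042 CPM in HL1002P, 0.395 ± 0.109 in HH and 0.83 ± 0.102 in WT muscle, with every mutant library below every WT one. In fat it was 17.2 ± 7.57 CPM in HL1002P, 10.2 ± 3.51 in HH and 9.88 ± 1.99 in WT, where mutants and WT overlapped.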

How the data were processed

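Raw read counts per gene for all 23 libraries were deposited by the authors in a single table. Per the submitters' processing notes, the build was mm10 and the tools were TopHat2 2.0.14, Bowtie2 2.2.6, Subread and featureCounts 1.4.6. Annotation, strand setting and the rule for reads with several matches are not given in the sources used here. Of 24062 symbols, 3605 had no count in any library.

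Tests used edgeR 4.0.16 in R 4.3.3 (TMM, filterByExpr by group, quasi-likelihood F tests of all libraries of a tissue, adjusted p below 0.05 over all genes tested); SEs come from the F statistic. The tissue difference was an interaction in 1 fit of all 23 libraries, treated as independent. Levels are CPM on TMM-scaled library sizes, normalised in each tissue separately; exon lengths and positions came from GENCODE annotation of GRCm38, the assembly also called mm10, and promoters from RefSeq. Alternatives used DESeq2 1.42.0, other scaling and filters, covariates and left-out libraries. The procedure was tested on simulated data. Reads carry no molecular identifiers and may repeat a molecule, so intervals and limits from counts cover counting error only.

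The 8 genes and all gene lists were chosen with earlier results of these data known. By rule, from each list up to 3 changed genes with the smallest adjusted p were named in each mutant, and for each gene the 3 most alike by correlation, passing over predicted genes. A gene that this rule names is not reported here. Of the listed symbols, Gk was matched as Gyk and Adgre1 as Emr1 through RefSeq synonyms; Ighm and Flg are not analysed here. Pairing of same-numbered libraries was checked by the correlation over genes of their deviations from group means. In HL1002P against HH muscle each same-numbered pair was the best match (r = 0.244, 0.286 and 0.217). No other comparison matched at every number. In muscle, replicates 1 and 2 of each genotype carry Y-linked transcripts and replicate 3 carries Xist. Number and sex run together there, so a match does not show that the libraries are paired.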

Additional observations from a re-analysis of the deposited data

Results flagged for a closer look

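In 5 of 40 groups of 4 libraries, a library stood far from the other 3. For independent groups of normally spread values about 1 in 20 would be flagged. The 40 groups share libraries and hold unevenly spread counts, so no excess over that rate can be read from them. Ucp1 did so in all fat genotypes, with 49.6 CPM in HL1002P replicate 4, 11.5 CPM in HH replicate 4 and 49.0 CPM in WT replicate 3. Ebf2 had 24.2 CPM in HL1002P fat replicate 4, against 12.02 to 12.9 CPM in the other 3. Ucp1 in HL1002P muscle replicate 3 was 0.0467 CPM, from 2 counts, with 0 in the other 3 libraries. With 0 in the other 3, any count at all would have been flagged there.

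The change of Prdm16 in HH differed between the tissues, by −1.55 ± 0.33 on the log2 scale in fat minus muscle (SE; edgeR interaction test, adjusted p = 0.0179), and it passed in all 15 fits with 1 library left out, at −1.34 to −1.71.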

How the results depend on the processing

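Prdm16 in fat kept its direction and its call in both mutants with DESeq2, other size factors, other filters, the replicate block, the compared groups alone, a sex covariate, libraries with Y-linked transcripts only and without any 1 library. It lost the call with either marker covariate and with libraries scaled to the fat cell markers. Depth limits Zic1 and Elovl3 in fat and Ucp1 in muscle.

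Without 1 library at a time, genes called in fat ran from 2023 to 7018 in HL1002P (2332 and 3116 without WT replicates 1 and 2, 2023, 2111 and 2448 without HL1002P replicates 1, 2 and 3) and from 829 to 4170 in HH (1355 and 1514 without WT replicates 1 and 2, 1164 and 829 without HH replicates 2 and 3). In muscle they ran from 3 to 13 in HL1002P, 21 to 133 in HH and 3 to 7 in HL1002P against HH, and for the tissue difference from 848 to 4055 in HL1002P and 126 to 1707 in HH. Of the 8 genes, 1 to 2 were called in HL1002P fat, 0 to 1 in HL1002P against HH muscle and 0 to 1 for the HL1002P tissue difference. Log2 fold changes that turned sign without some library ran as follows. In HL1002P fat Ucp1 ran from −3.24 to 0.50, Cidea from −0.42 to 0.037, Dio2 from −0.72 to 0.57, Elovl3 from −1.18 to 0.11 and Ppargc1a from −0.28 to 0.14. Elovl3 in HH fat ran from −0.068 to 0.85. In HL1002P against HH fat Ucp1 ran from −0.82 to 3.79, Cidea from −0.12 to 0.37 and Ebf2 from −0.36 to 0.13. In HL1002P muscle Cidea ran from −0.34 to 0.21, Ebf2 from −0.30 to 0.046, Zic1 from −0.10 to 0.14 and Ppargc1a from −0.11 to 0.81. In HH muscle Cidea ran from −0.31 to 0.40, Zic1 from −0.82 to 0.59, Ppargc1a from −0.056 to 0.86 and Ebf2 from −0.39 to 0.088. In HL1002P against HH muscle Ppargc1a ran from −0.34 to 0.24, Zic1 from −0.58 to 0.83, Cidea from −0.44 to 0.27 and Ebf2 from −0.20 to 0.27. For the HL1002P tissue difference Cidea ran from −0.35 to 0.26, Dio2 from −0.97 to 0.28 and Ppargc1a from −0.89 to 0.038, and for HH Cidea from −0.65 to 0.026.

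Adding lymphocyte markers as a covariate left 0 genes called in either mutant against WT fat and 2 between the mutants, with 0 of the 8 genes; Ucp1 turned to 1.14, Cidea to 0.45, Ppargc1a to 0.40 and Ebf2 to 0.13 in HL1002P, and Cidea to 0.22, Dio2 to 0.31, Elovl3 to −0.019 and Ebf2 to 0.13 in HH. With the fat cell markers as a covariate 1 gene was called in HL1002P, 157 in HH and 6 between the mutants, with 0 of the 8 genes; Ucp1 turned to 0.071, Cidea to 0.44, Elovl3 to 0.064, Ppargc1a to 0.32 and Ebf2 to 0.032 in HL1002P, Cidea to 0.10 in HH, and Ebf2 to 0.10 between the mutants. Scaled to the fat cell markers, 6903 genes were higher and 78 lower in HL1002P, and 1422 higher and 100 lower (1522 in all) in HH, with 0 of the 8 genes, and the median of all genes moved to 1.04 and 0.86; Cidea turned to 0.89, Prdm16 to 0.11, Elovl3 to 0.53, Ppargc1a to 0.86 and Ebf2 to 0.41 in HL1002P, Cidea to 0.46, Dio2 to 0.41, Ppargc1a to 0.22 and Ebf2 to 0.23 in HH, and Ebf2 to 0.18 between the mutants. Without the 3 libraries highest in muscle markers 2 of the 8 genes were called in each mutant and 5505 genes in HH; Dio2 turned to −1.06 in HL1002P, Elovl3 to −0.063 in HH, and Ucp1, Cidea and Dio2 to −1.15, −0.12 and −0.16 between the mutants. These last 2 alternatives were chosen after the data were seen. With libraries with Y-linked transcripts only, 6246 genes and 2 of the 8 were called in HH fat, and Dio2 turned to −1.19 in HL1002P.

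DESeq2 called 5210 genes in HH fat, 20 in HL1002P against HH fat, 188 in HL1002P muscle, 653 in HH muscle, 41 in HL1002P against HH muscle (1 of the 8) and 1624 for the HH tissue difference. The compared groups alone gave 1 call between the mutants in fat, 8 in HL1002P muscle and 85 in HH muscle. A filter of 1 CPM on average gave 10 calls in HL1002P muscle, and a sex covariate 225 in HH muscle, with Zic1 at −0.027 in HL1002P and −0.015 in HH muscle. With the replicate number as a block 2 of the 8 genes were called in each mutant against WT fat, Ebf2 at −0.60 in HL1002P (edgeR adjusted p = 0.0459) and Ucp1 at −3.65 in HH (adjusted p = 0.0474) besides Prdm16, and Dio2 turned to −0.17 in HL1002P. The share of all genes called in fat under this block is not given here, so these calls cannot be read against it. Same-numbered fat libraries did not match at every number in any comparison (r from −0.391 to 0.527). The block gave 203 calls in HH muscle and turned Zic1 to −0.064 in HL1002P, −0.35 in HH and 0.29 between the mutants. In HL1002P against HH muscle it changed no call of the 8 genes. The cause of these changes was not tested.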
